A study of Mus musculus with 21 samples.

Results

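Guidance receptors and ligands steer growing nerve fibres and growing vessels, and the endothelium that lines blood vessels keeps many of them in the adult. The 8 genes described here are Sema3c and Sema6a, which encode semaphorin ligands, and Robo4, Unc5b, Plxnd1, Plxna2, Nrp1 and Nrp2, which encode receptors. They were chosen by name from the 24206 gene names of an RNA sequencing table of sorted mouse brain endothelium, and all 8 were found. Semaphorins act mainly through plexins, and most of the secreted ones bind neuropilins that hold a plexin beside them. Neuropilins also bind vascular endothelial growth factors and so stand between both pathways. Robo4 is a Robo receptor largely restricted to endothelium, where it is known to bind Unc5b and to limit vessel leakage, and Unc5b is also a netrin receptor.

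RNA came from brain endothelial cells of adult C57BL/6 mice aged 12 to 20 weeks, sorted alive as CD31-positive cells without CD45, a leukocyte protein, or PDGFRb, a pericyte protein. In a stroke experiment, mice underwent 1 h of middle cerebral artery occlusion and 1 d of reperfusion, and the stroke hemisphere (ST) and the other hemisphere (NS) were sorted apart. Knockouts (Cko-ST and Cko-NS) were Gpr124 flox/-; ROSA-CreER+ and controls (WT-ST and WT-NS) were Gpr124 flox/+; ROSA-CreER+, with 4 libraries in each of the 4 groups. Gpr124 is a receptor that helps brain endothelium respond to Wnt7 ligands, through beta-catenin. Both genotypes carried a floxed allele and the Cre, which the ROSA locus does not restrict to endothelium, and the NS hemisphere is that of mice with a stroke on the other side. Of the 16 stroke libraries, Cko-ST 3 and Cko-ST 4 are labelled male and the others female. In the beta-catenin experiment, under normal conditions, 3 libraries (Bcat) came from Ctnnb1 lox(ex3)/+; Cdh5-CreER+ mice and 2 (WT) from Ctnnb1 +/+; Cdh5-CreER+ mice, all labelled male. The Cdh5 promoter drives Cre in endothelium, and loss of exon 3 of Ctnnb1 leaves beta-catenin that is not marked for breakdown. No label ties a library to an animal of its own, and p-values here rest on the spread between samples, which may be technical. The stroke libraries hold tags from the 3' ends of polyadenylated RNA and the 5 others were prepared differently, starting with total RNA, so levels were not compared between the experiments.

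Values are RPKM, read counts scaled by gene length and by library depth. Estimated depth was 4.73 to 19.7 M reads in the stroke libraries, it is not given for the other 5, and between 12967 and 14362 genes per library were above 0. Gpr124 averaged 1.37 ± 0.585 RPKM in Cko-ST and 2.76 ± 1.65 in Cko-NS, against 4.99 ± 2.52 in WT-ST and 4.49 ± 2.25 in WT-NS (SD, n = 4 each). Neither genotype comparison was called (adjusted p = 0.764 in ST and 0.533 in NS). All Cko-ST values lay below all WT-ST values, as 1.86% of genes did, while the Cko-NS and WT-NS values overlapped. In either hemisphere, 3' tags outside the deleted part would not show the deletion. By Xist and Y-linked RNA, Cko-NS 4 read as male and Cko-ST 3 as female, against their labels, and calls of members that use them are given with and without both. All 10 endothelial markers were above 0 in every group, and their summed level was 1545 to 1824 RPKM in Cko-ST, 1533 to 1725 in Cko-NS, 1444 to 1846 in WT-ST and 1105 to 1346 in WT-NS. The 10 mural markers summed to 15.6 to 103 RPKM in Cko-ST, 23.5 to 33.8 in Cko-NS, 12.5 to 49.3 in WT-ST and 50.5 to 70.6 in WT-NS, with Kcnj8 at 0 throughout WT-ST. The highest of these sums were mostly Rgs5, at up to 93.8 RPKM in Cko-ST and 38.2 to 57.6 in WT-NS. No other mural marker exceeded 4.70 RPKM in Cko-ST or 5.66 in WT-NS. The 7 oligodendrocyte markers summed to 21.2 to 277 RPKM in Cko-ST, 44.7 to 532 in Cko-NS, 29.8 to 376 in WT-ST and 186 to 1034 in WT-NS, with none at 0 throughout a group. Sums of the 9 neuron markers were 0.709 to 5.02 RPKM in Cko-ST, 4.34 to 40.2 in Cko-NS, 3.92 to 14.3 in WT-ST and 6.88 to 20.2 in WT-NS, and 1 of the 3 tested was called lower in Cko-ST than in Cko-NS. Sums of the 9 microglia and macrophage markers were 3.82 to 8.75 RPKM in Cko-ST, 8.14 to 24.8 in Cko-NS, 2.29 to 16.8 in WT-ST and 1.43 to 84.0 in WT-NS, and 1 of the 4 tested was called lower in WT-ST than in WT-NS. The astrocyte markers summed to at most 20.3 RPKM and the fibroblast markers to at most 2.09 RPKM in any stroke library. All WT-NS endothelial sums lay below those of the other stroke libraries, and all WT-NS mural sums lay above those of every other stroke library except Cko-ST 4, as the plot of summed markers shows. The part of these differences in the results was not tested, and in bulk samples fewer cells of a type and less RNA per cell cannot be told apart.

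**Figure D1:**
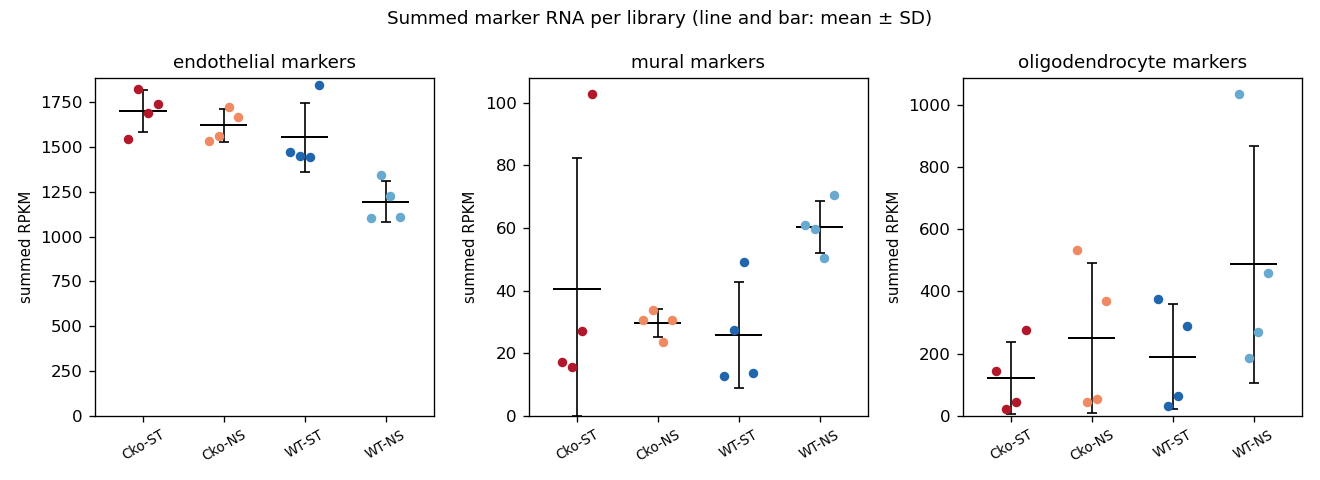
Summed RPKM of endothelial, mural and oligodendrocyte marker genes (y axes) in each stroke library, by group (x axes); points are libraries, lines and bars the mean ± SD (n = 4), with bars cut at 0. WT-NS libraries lie lowest for endothelial markers, at 1105 to 1346 RPKM, and Cko-ST 4 stands apart for mural markers at 103 RPKM.

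Sema3c fell in the stroke hemisphere in both genotypes, and in controls Nrp1 fell and Plxnd1 rose there. Between genotypes only Robo4 was called, as higher in Cko-NS than in WT-NS. Genes are said to have risen or fallen only where limma's moderated test on log2(RPKM + 1) gave an adjusted p under 0.05 over all genes with a mean of at least 1 RPKM. Unc5b was under that minimum in the stroke libraries, which left 7 of the 8 members for test. Of these, 3 were called in the stroke comparison of controls, where 13.3% of 9838 genes were called, and 1 in that of knockouts, where 15.2% were called. In the genotype comparison of the NS hemisphere 1 member was called, where 0.315% of genes were called. By direction, 8.46% of genes were called higher and 4.84% lower in WT-ST, 6.44% higher and 8.71% lower in Cko-ST, and 0.224% higher and 0.0915% lower in Cko-NS. This split depended on scaling: median-of-ratios scaling called 868 genes higher and 599 lower in Cko-ST against Cko-NS, where 634 and 857 were called as deposited, and 14 higher and 15 lower in Cko-NS against WT-NS, where 22 and 9 were called. Groups that did not overlap gave 11.9% of genes higher and 8.7% lower in WT-ST, 7.4% higher and 11.4% lower in Cko-ST against Cko-NS, 6.66% higher and 2.04% lower in Cko-NS, and 1.46% higher and 1.86% lower in Cko-ST against WT-ST. Among the 7 tested members 2 were apart and higher and 2 apart and lower in WT-ST, 1 was apart and lower in Cko-ST against Cko-NS, 1 each way in Cko-NS, and 1 was apart and higher in Cko-ST against WT-ST. In the genotype comparison of the ST hemisphere no member was called and 0% of genes were called, although 476 had an unadjusted p under 0.05. The interaction, which asks whether the stroke effect differed by genotype, called no member and 0% of genes, with 691 at an unadjusted p under 0.05. The median log2 fold change of the members was 0.38 in the stroke comparison of controls and -0.36 in that of knockouts, against 0.01 and -0.13 over all genes. It was 0.03 in the NS genotype comparison and -0.35 in the ST one, against 0.11 and -0.03 over all genes. The comparisons of 1 group with 2 others share its libraries and are not independent.

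**Figure D2:**
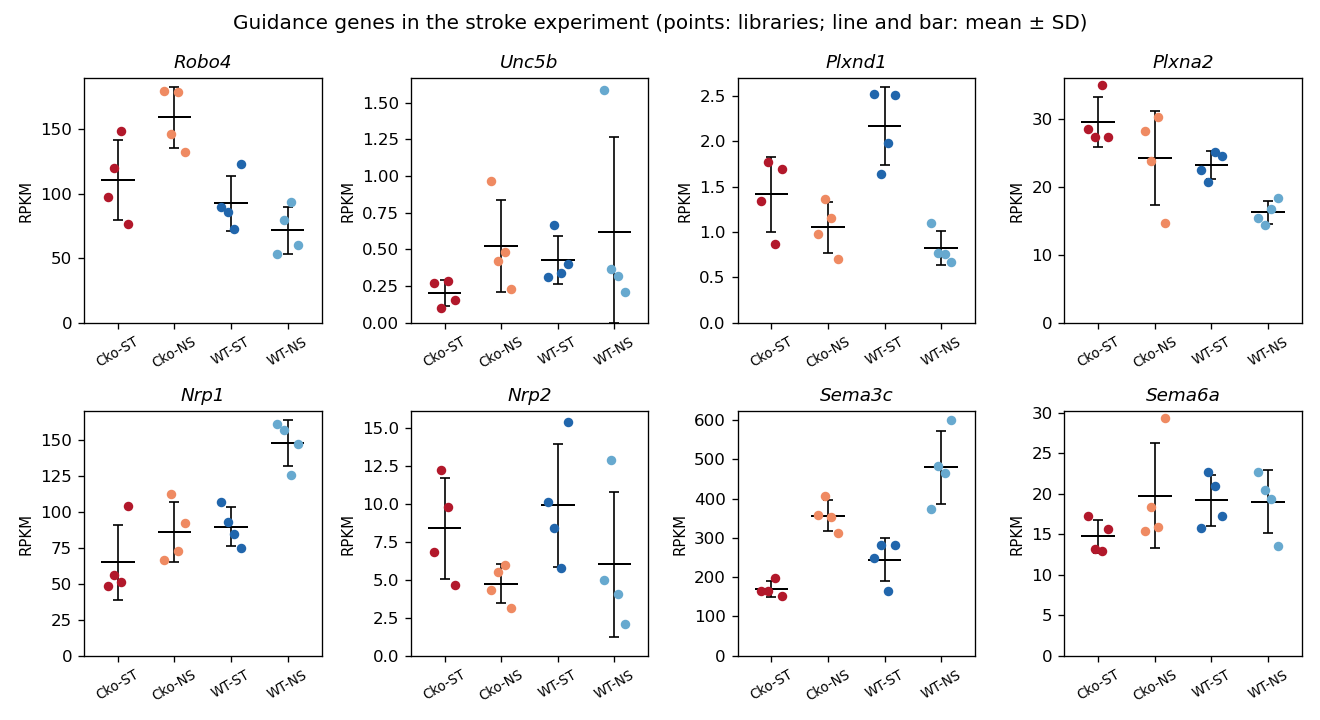
RPKM (y axes, linear) of the 8 guidance genes in each stroke library, by group (x axes); points are libraries, lines and bars the mean ± SD (n = 4), with bars cut at 0. Sema3c lies lower in both ST groups, Robo4 highest in Cko-NS, Nrp1 highest in WT-NS, and Plxnd1 and Unc5b stay near or below 2.52 RPKM.

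Sema3c, a secreted semaphorin that signals through neuropilins with Plxnd1 (GRCm38 chromosome 5, 17574281 to 17730268, plus strand), was the most abundant member in all 6 groups. In the knockouts its RPKM was 165, 164, 198 and 151 in Cko-ST, against 357, 406, 352 and 313 in Cko-NS. All Cko-ST libraries lay below all Cko-NS libraries. The means were 169.7 ± 20.2 and 357 ± 38.2 RPKM (SD, n = 4 each), 2.10-fold lower in Cko-ST, with a log2 fold change of -1.07 ± 0.18 (SE, adjusted p = 5.98e-04). In the controls Sema3c had 249, 282, 165 and 283 RPKM in WT-ST, against 373, 483, 464 and 599.6 RPKM in WT-NS. These groups did not overlap either. The WT-ST mean of 245 ± 55.7 RPKM was 1.96-fold below the WT-NS mean of 479.9 ± 93.2 RPKM (SD, n = 4 each), with a log2 fold change of -0.98 ± 0.18 (adjusted p = 0.00138). Sema3c remained past the threshold in all 27 alternative settings in knockouts and all 26 in controls. In knockouts without Cko-NS 4 and Cko-ST 3 the log2 fold change was -1.21 (adjusted p = 8.75e-04). The fall did not differ detectably between genotypes, with an interaction of -0.09 ± 0.26 (95% interval -0.63 to 0.45, adjusted p = 0.962). As a share of the summed endothelial markers, Sema3c stood at 10.0 ± 1.44% in Cko-ST and 22.1 ± 3.21% in Cko-NS, and at 15.8 ± 3.37% in WT-ST and 40.4 ± 9.25% in WT-NS (SD, n = 4 each). Neither pair of hemispheres overlapped on that scale. The divisor was not fixed, however. Of the 10 endothelial markers in it, 3 were called higher and 1 lower in WT-ST against WT-NS. In Cko-ST against Cko-NS 2 were called higher and 1 lower. The share therefore mixes changes in Sema3c and in those markers.

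Between genotypes Sema3c was lower in knockouts in both hemispheres without a call. Log2 fold changes were -0.50 ± 0.18 in Cko-ST against WT-ST (adjusted p = 0.966) and -0.41 ± 0.18 in Cko-NS against WT-NS (adjusted p = 0.311). The ranges of the groups overlapped in both hemispheres.

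Sema6a, a membrane-bound semaphorin that binds Plxna2 (chromosome 18, 47235598 to 47368870, minus strand), passed no test. It had 17.2, 13.2, 13.0 and 15.6 RPKM in Cko-ST and 15.4, 18.4, 15.9 and 29.3 in Cko-NS. Controls had 15.8, 22.6, 20.9 and 17.3 RPKM in WT-ST and 22.6, 20.4, 19.4 and 13.5 in WT-NS. All pairs of groups overlapped, and Cko-NS 4, read as male, was the highest library. Adjusted p was 0.312 for the knockout hemispheres and at least 0.846 for the other comparisons, and the interval of the stroke effect ran between -0.46 and 0.50 in controls and between -0.84 and 0.12 in knockouts.

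Nrp1 (chromosome 8, 128358604 to 128503363, plus strand) encodes the neuropilin that binds Sema3a and VEGF-A. In the controls its RPKM was 107, 92.7, 85.0 and 74.8 in WT-ST, against 161, 157, 126 and 147 in WT-NS. All WT-ST libraries lay below all WT-NS libraries, a separation in either direction that 20.6% of genes had. The means were 89.8 ± 13.4 and 148 ± 15.8 RPKM (SD, n = 4 each), 1.65-fold lower in WT-ST, with a log2 fold change of -0.72 ± 0.22 (adjusted p = 0.0412). Over 26 alternative settings the adjusted p was 0.00849 to 0.109 and passed in 18. It missed without WT-NS 1 (0.0958), WT-NS 2 (0.0907), WT-NS 4 (0.0798), WT-ST 2 (0.0684), WT-ST 3 (0.0920), WT-ST 4 (0.109) and Cko-ST 2 (0.05001), and with no filter on low values (0.0821).

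In knockouts Nrp1 had 48.2, 56.2, 51.2 and 104 RPKM in Cko-ST, against 66.4, 112, 72.6 and 92.3 in Cko-NS. The 4th Cko-ST library was within the Cko-NS range and the other 3 were below it. The log2 fold change was -0.44 ± 0.22 (adjusted p = 0.202), and without Cko-ST 4 it was -0.69 (adjusted p = 0.0232). Cko-ST 4 was also the library with a mural sum of 103 RPKM, against 15.6 to 26.9 in the other Cko-ST libraries. Most of that sum was Rgs5, at up to 93.8 RPKM in Cko-ST, and no other mural marker exceeded 4.70 RPKM there. The part of mural RNA in the Nrp1 level of Cko-ST 4 was not tested. The stroke effects of the genotypes differed by 0.28 ± 0.32 on the log2 scale (95% interval -0.39 to 0.95, adjusted p = 0.889).

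Nrp1 was also lower in knockouts of the NS hemisphere, where all Cko-NS libraries lay below all WT-NS libraries, as the groups did for 8.7% of genes in either direction. The log2 fold change was -0.80 ± 0.22 and missed the threshold (adjusted p = 0.111, range 0.0495 to 0.253 over 26 settings). It passed without Cko-ST 4 alone. In the ST hemisphere the genotype difference was -0.52 ± 0.22 (adjusted p = 0.994), with overlapping groups. Per summed endothelial marker RNA, Nrp1 was 3.80 ± 1.44% in Cko-ST, 5.32 ± 1.39% in Cko-NS and 5.89 ± 1.35% in WT-ST, against 12.5 ± 1.88% in WT-NS (SD, n = 4 each). That sum holds markers that were themselves called between hemispheres, and it was lowest in WT-NS.

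Nrp2 (chromosome 1, 62703285 to 62818695, plus strand), the neuropilin known from veins, lymphatic vessels and Sema3f binding, spread widely within groups, with a coefficient of variation of 79.1% in WT-NS. Its RPKM was 6.80, 12.3, 9.82 and 4.66 in Cko-ST, against 4.33, 5.55, 5.97 and 3.12 in Cko-NS. In controls it was 10.1, 8.42, 5.78 and 15.4 in WT-ST, against 4.98, 12.9, 4.05 and 2.10 in WT-NS. The hemispheres overlapped in both genotypes. Log2 fold changes for stroke were 0.66 ± 0.40 in knockouts (adjusted p = 0.287) and 0.79 ± 0.40 in controls (adjusted p = 0.220). The effect in controls was 1.19 without WT-NS 2, the library at 12.9 RPKM (adjusted p = 0.0448). Genotype effects were within 1 SE of 0 in both hemispheres.

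Plxnd1 (chromosome 6, 115954811 to 115995005, minus strand), the endothelial plexin of vessel patterning, had a low level and rose with stroke in controls. Its RPKM was 2.52, 1.64, 1.98 and 2.51 in WT-ST, against 1.10, 0.770, 0.755 and 0.673 in WT-NS, and the groups did not overlap. The means were 2.17 ± 0.431 and 0.824 ± 0.189 RPKM (SD, n = 4 each), 2.63-fold higher in WT-ST, and the log2 fold change of 0.79 ± 0.25 is understated at this level by the added 1 (adjusted p = 0.0402). These values rest on an estimated 36.0 to 336 reads per stroke library. Over 25 alternative settings the adjusted p was 0.0268 to 0.0963 and passed in 16. It missed without WT-NS 2 (0.0823), WT-NS 3 (0.0803), WT-NS 4 (0.0905), WT-ST 1 (0.0963), WT-ST 3 (0.0684), WT-ST 4 (0.0902) and Cko-ST 1 (0.0526), in a fit of the 2 groups alone (0.0742), and with the replicate number as a block (0.0573), although in controls the numbers were not taken as pairs. In knockouts Plxnd1 had 1.34, 1.77, 0.867 and 1.70 RPKM in Cko-ST, against 0.979, 1.36, 1.16 and 0.698 in Cko-NS. Those groups overlapped, with a log2 fold change of 0.23 ± 0.25 (adjusted p = 0.568). The difference between the 2 stroke effects was -0.56 ± 0.35 (95% interval -1.29 to 0.17, adjusted p = 0.780).

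Plxna2 (chromosome 1, 194618218 to 194816869, plus strand), a plexin that binds Sema6a, passed no test. It had 28.5, 27.3, 34.9 and 27.2 RPKM in Cko-ST and 28.2, 23.8, 30.3 and 14.6 in Cko-NS. Controls had 22.4, 20.6, 25.0 and 24.6 RPKM in WT-ST and 15.5, 14.4, 16.8 and 18.3 in WT-NS. WT-ST lay wholly above WT-NS (log2 fold change 0.49 ± 0.21, adjusted p = 0.134) and Cko-ST wholly above WT-ST (0.33 ± 0.21, adjusted p = 0.994), where the groups of 3.32% of genes did not overlap. Cko-NS overlapped Cko-ST, where 18.8% of genes had groups apart, and also overlapped WT-NS through Cko-NS 4 at 14.6 RPKM (0.51 ± 0.21 against WT-NS, adjusted p = 0.280).

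Robo4 (chromosome 9, 37401897 to 37415115, plus strand) rose in knockouts of the NS hemisphere. Its RPKM was 179, 146, 179 and 132 in Cko-NS, against 53.0, 79.5, 93.2 and 59.9 in WT-NS. The lowest knockout library was above the highest control library. The means were 159 ± 23.7 and 71.4 ± 18.4 RPKM (SD, n = 4 each), 2.23-fold higher in Cko-NS, with a log2 fold change of 1.17 ± 0.23 (adjusted p = 0.0317). It was 16th by size among the 22 genes called higher, and all genes together moved by 0.11 in this comparison. As a share of the summed endothelial markers Robo4 was 9.83 ± 1.59% in Cko-NS (7.93 to 11.7%), against 5.93 ± 1.21% in WT-NS (4.80 to 7.61%), again without overlap. Blood leukocyte markers, of which 6 of 7 were in the table, summed to 6.42 to 82.4 RPKM in Cko-NS and 0 to 7.85 RPKM in WT-NS, with Cd3e at 0 in both groups. Of these markers 2 were tested and neither was called (median log2 fold change 2.42), and their part in the Robo4 result was not tested. Over 26 alternative settings the log2 fold change was 1.03 to 1.30 and the adjusted p 0.0213 to 0.117, with 16 past the threshold. It missed without WT-NS 1 (0.0854), WT-NS 4 (0.117), WT-ST 2 (0.0528), Cko-NS 1 (0.0785), Cko-NS 2 (0.0514), Cko-NS 3 (0.103) and Cko-ST 2 (0.0509), and with median-of-ratios scaling (0.0634), no filter (0.0790) or the 2 groups alone (0.105). Without Cko-NS 4 and Cko-ST 3 it was 1.25 (adjusted p = 0.0216).

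In the ST hemisphere Robo4 had 97.7, 119.5, 148 and 76.2 RPKM in Cko-ST, against 89.6, 85.5, 72.2 and 123 in WT-ST. The groups overlapped, and the log2 fold change was 0.24 ± 0.23 (95% interval -0.24 to 0.71, adjusted p = 0.998). The stroke effect was -0.55 ± 0.23 in knockouts (adjusted p = 0.108) and 0.38 ± 0.23 in controls (adjusted p = 0.305). In knockouts it passed without Cko-ST 3 (-0.71, adjusted p = 0.0461) and without both libraries whose RNA read against the sex label (-0.79, adjusted p = 0.0376). The stroke effects differed by -0.93 ± 0.32 (95% interval -1.60 to -0.26, unadjusted p = 0.00926 in limma), which missed the threshold over all genes (adjusted p = 0.681).

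Unc5b (chromosome 10, 60762593 to 60831581, minus strand), the netrin receptor that binds Robo4, was close to the detection limit in the stroke libraries. Its RPKM was 0.272, 0.103, 0.286 and 0.156 in Cko-ST and 0.967, 0.419, 0.480 and 0.229 in Cko-NS. Controls had 0.309, 0.668, 0.338 and 0.403 RPKM in WT-ST and 1.59, 0.369, 0.320 and 0.211 in WT-NS. These are an estimated 7.03 to 44.1 reads per library, all pairs of groups but Cko-ST and WT-ST overlapped, and without the filter on low values no comparison passed (adjusted p at least 0.437).

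**Figure D3:**
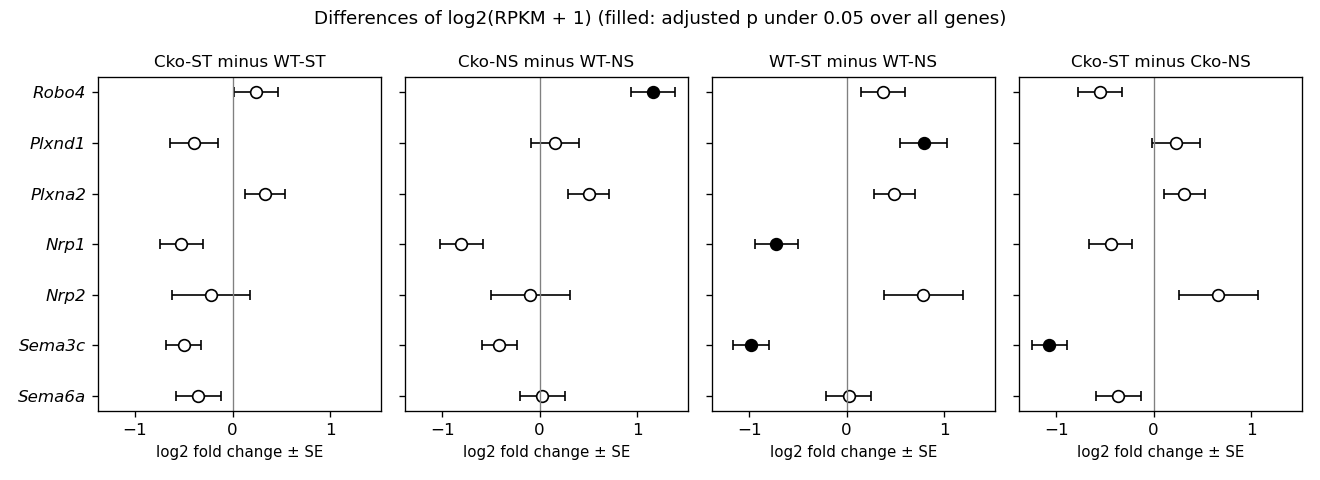
Log2 fold change ± SE (x axes) of the 7 tested members (y axes) in the 4 comparisons of the stroke experiment; filled points have an adjusted p under 0.05 over all 9838 genes. The filled points are Robo4 in Cko-NS minus WT-NS, Plxnd1, Nrp1 and Sema3c in WT-ST minus WT-NS, and Sema3c in Cko-ST minus Cko-NS.

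Sequences before the RefSeq start sites (GRCm38.p6) are shown for 3 called members, Robo4, Nrp1 and Plxnd1, and not for Sema3c. RefSeq windows were at hand for 7 of the 8 members. Windows of 250 bases were cut where an annotated exon began. This left 175 bases for Robo4, so its sequence stops short of the RefSeq start. They are printed 5' to 3' on the gene's strand, and capitals mark the motifs found on either strand. The windows are chr9:37401722-37401896 (plus, 175 bases) for Robo4, chr8:128358823-128359072 (plus, 250 bases) for Nrp1, which lies between exons of another Nrp1 transcript, and chr6:115995006-115995255 (minus, 250 bases) for Plxnd1.
Robo4: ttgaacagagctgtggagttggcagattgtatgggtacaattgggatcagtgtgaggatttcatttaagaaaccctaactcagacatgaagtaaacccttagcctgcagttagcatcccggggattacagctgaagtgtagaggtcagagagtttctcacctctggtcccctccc
Nrp1: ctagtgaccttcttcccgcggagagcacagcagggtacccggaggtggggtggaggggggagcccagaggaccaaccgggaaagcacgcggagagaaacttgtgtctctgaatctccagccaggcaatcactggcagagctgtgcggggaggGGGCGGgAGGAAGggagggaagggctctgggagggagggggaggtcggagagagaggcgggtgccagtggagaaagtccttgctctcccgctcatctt
Plxnd1: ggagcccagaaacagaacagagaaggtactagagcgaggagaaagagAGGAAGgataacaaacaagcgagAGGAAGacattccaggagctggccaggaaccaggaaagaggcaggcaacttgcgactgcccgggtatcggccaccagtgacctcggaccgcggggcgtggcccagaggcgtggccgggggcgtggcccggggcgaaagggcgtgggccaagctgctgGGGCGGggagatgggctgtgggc
The motifs searched were CTTTGAT or CTTTGTT, bound by the TCF/LEF factors that act with beta-catenin, AGGAAG for ETS factors, GGGCGG for SP1, ACGTG for HIF and TGANTCA for AP-1. The TCF/LEF letters were found in none of the 3 windows, against 8.06% of 32851 promoter windows of 250 bases and 5.82% of windows of 175 bases, the length for Robo4. Nrp1 held 1 ETS and 1 SP1 match and Plxnd1 held 2 ETS and 1 SP1 match, where 29.5% and 32.7% of windows hold each motif. The HIF letters ACGTG were found in none of the 3, against 16.6% of windows of 250 bases and 11.0% of 175 bases. Other forms of the HIF site were not searched. Among them is GCGTG, which the Plxnd1 window holds, as does the Nrp1 window on its other strand. AP-1 letters were found in none either, against 6.75% and 4.78% of windows of these lengths. The shorter Robo4 window held no match, where 21.0% of windows of that length hold the ETS and 20.2% the SP1 letters. A match or its absence in these windows says nothing of binding.

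By mean RPKM the order of levels was Sema3c, Robo4, Nrp1, Plxna2, Sema6a, Nrp2, Plxnd1 and Unc5b in Cko-ST, Cko-NS and WT-ST. In WT-NS Nrp1 stood above Robo4 and Sema6a above Plxna2. Robo4 and Nrp1 had overlapping ranges in Cko-ST and WT-ST, as did Plxna2 and Sema6a in Cko-NS, WT-ST and WT-NS, and Plxnd1 and Unc5b in Cko-NS and WT-NS. Division by length assumes reads along the whole transcript, and for 3' tags it lowers long genes such as Plxna2, whose longest coding transcript has 11040 bases against 3597 for Nrp1. In WT-NS 99.4% of the detected genes had a mean below that of Sema3c, 94.5% below that of Robo4 and 35.8% below that of Plxnd1.

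Among the other tested genes, those whose log2 values over the 16 libraries were most like Sema3c were Map3k1 (r = 0.962), Slco1c1 (0.960), a thyroid hormone and organic anion transporter of the blood-brain barrier, and Atp10a (0.959). Most like Robo4 were Map3k6 (0.935), Lonp1 (0.929), a mitochondrial protease, and Eif3l (0.878). For Nrp1 they were H3f3a (0.908), Zfp937 (0.898) and Golim4 (0.884), and for Plxna2 Mt1 (0.917), a metallothionein, Cebpd (0.912), a transcription factor, and Fmnl2 (0.907). For Plxnd1 they were Rpl34 (0.908), its copy Rpl34-ps1 (0.908) and Ssr2 (0.896), of which Rpl34 and its copy may share reads. For Nrp2 they were Hdhd2 (0.889), Ipo9 (0.861) and 0610007P14Rik (0.838), and for Sema6a Anxa4 (0.814), Gpatch11 (0.806) and Arhgef12 (0.797). Among the members, Nrp1 ran with Sema3c (r = 0.67) and against Plxna2 (-0.81) and Robo4 (-0.64). These libraries share groups, depth and cell makeup, so the values of r describe them only.

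Of the other genes of these pathways, Rnd1, a small GTPase that binds plexins, changed most with stroke. It had 33.2, 39.2, 25.5 and 40.9 RPKM in Cko-ST, against 0.754, 2.13, 2.51 and 1.53 in Cko-NS. In controls it had 14.2, 23.1, 36.5 and 55.3 RPKM in WT-ST, against 1.44, 1.998, 1.993 and 0.347 in WT-NS. No ST library overlapped an NS library. The log2 fold change was 3.73 ± 0.37 in knockouts (adjusted p = 5.24e-06) and 3.67 ± 0.37 in controls (adjusted p = 3.90e-06), with an interaction of 0.06 ± 0.52. Of the 16 plexin and neuropilin signalling genes 12 were tested. Rnd1 and Fyn rose and Dpysl2 fell in knockouts, and Rnd1 rose and Dpysl2 fell in controls. Fyn, a kinase downstream of plexin A receptors, had 33.0 ± 4.82 RPKM in Cko-ST and 15.0 ± 1.501 in Cko-NS (SD, n = 4 each, log2 fold change 1.08 ± 0.30, adjusted p = 0.0194). It had 20.5 ± 6.03 RPKM in WT-ST and 15.2 ± 7.15 in WT-NS (adjusted p = 0.307). The difference between these effects was not called (interaction adjusted p = 0.799), and Fyn in knockouts missed without Cko-ST 1 (0.0585) and without both libraries labelled male (0.0926). Dpysl2, a collapsin response mediator, fell by 0.62 on the log2 scale in knockouts (adjusted p = 0.0203) and by 0.62 in controls (adjusted p = 0.0223). In knockouts it missed without Cko-NS 1 (0.0538), Cko-NS 4 (0.0582), Cko-ST 3 (0.0569) or both libraries of contrary sex (0.126), without both labelled male (0.0881), and with median-of-ratios scaling (0.0915) or the 2 groups alone (0.05005). In controls it missed without WT-NS 1 (0.0794), WT-ST 2 (0.0530), WT-ST 3 (0.0588) or WT-ST 4 (0.0695).

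Sema6d, a membrane-bound semaphorin, rose in both genotypes. It had 12.0, 12.8, 8.46 and 14.8 RPKM in Cko-ST, against 2.92, 1.47, 2.44 and 2.20 in Cko-NS, and 8.71, 8.23, 13.6 and 8.32 RPKM in WT-ST, against 2.39, 2.86, 3.31 and 2.003 in WT-NS. The hemispheres were apart in both genotypes, with log2 fold changes of 1.99 ± 0.26 in knockouts (adjusted p = 5.51e-05) and 1.54 ± 0.26 in controls (adjusted p = 5.97e-04), both past the threshold in every alternative run. Of the 18 other semaphorins 5 were tested, and beside Sema6d only Sema7a was called, as a rise in controls. It had 9.82, 11.9, 11.8 and 17.4 RPKM in WT-ST, against 5.41, 10.2, 5.80 and 4.71 in WT-NS, groups that overlapped (0.89 ± 0.28, adjusted p = 0.0451), and it passed in 12 of 26 alternatives (adjusted p 0.0196 to 0.129). Of the single libraries, it missed without WT-NS 1, 3 or 4, WT-ST 2, 3 or 4, Cko-NS 2 or 3 and Cko-ST 1 or 3 (0.0530 to 0.129). It also missed with a pseudocount of 5 (0.0569), no filter (0.0708), the 2 groups alone (0.0579) and the replicate number as a block (0.0561). In knockouts Sema7a had 10.1 ± 2.95 RPKM in Cko-ST and 12.5 ± 3.88 in Cko-NS (SD, n = 4 each, adjusted p = 0.531), and the difference between genotypes was not called (interaction -1.18 ± 0.40, adjusted p = 0.681).

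Of 9 Robo and Slit genes 2 were tested, and Srgap2, a GTPase activator that binds Robo receptors, fell in knockouts. It had 1.90, 1.57, 3.67 and 1.59 RPKM in Cko-ST, against 8.91, 6.04, 6.14 and 5.15 in Cko-NS, groups that were apart (log2 fold change -1.27 ± 0.29, adjusted p = 0.00536, past the threshold in 26 of 26 alternatives). In controls it had 3.39 ± 0.636 RPKM in WT-ST and 7.01 ± 2.35 in WT-NS (SD, n = 4 each, -0.83 ± 0.29, adjusted p = 0.0626). Of 15 netrin, Unc5 and partner genes 4 were tested, and Flrt2, a membrane protein that binds Unc5 receptors, fell in controls. It had 4.95, 7.46, 2.07 and 2.25 RPKM in WT-ST, against 11.5, 15.7, 8.49 and 19.5 in WT-NS, without overlap (-1.59 ± 0.32, adjusted p = 0.00283, past the threshold in 26 of 26 alternatives). In knockouts it had 4.52 ± 0.947 RPKM in Cko-ST and 9.59 ± 1.47 in Cko-NS (SD, n = 4 each, -0.95 ± 0.32, adjusted p = 0.0563). None of the 7 other plexins reached a mean of 1 RPKM in the stroke libraries, and Plxnb1 and Plxna1 were below 1 RPKM as a mean of each of the 4 groups.

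All 7 growth factor partners of the neuropilins were tested. Pgf, a ligand of Flt1 and Nrp1, rose with stroke in knockouts (5.92 ± 2.49 RPKM in Cko-ST and 1.11 ± 1.06 in Cko-NS, 1.76 ± 0.49, adjusted p = 0.0221) and in controls (4.65 ± 4.66 RPKM in WT-ST and 0.410 ± 0.413 in WT-NS, 1.68 ± 0.49, adjusted p = 0.0303; SD of RPKM, SE of log2 fold changes, n = 4 each). In knockouts it missed without Cko-NS 1 (0.0675), Cko-ST 1 (0.0695) or Cko-ST 3 (0.0509), and with no filter on low values (0.0606). In controls, where WT-ST 2 at 0.674 RPKM overlapped WT-NS, it missed without WT-NS 1, 3 or 4 or WT-ST 1, 3 or 4 (0.0517 to 0.102), with no filter (0.0822), in a fit of the 2 groups alone (0.0532), and with a pseudocount of 5 (0.0624), where the log2 fold change was 0.73. Vegfa, the growth factor that Nrp1 binds, was called higher in both stroke comparisons and is named here after its values were seen, with means of 3.36 ± 2.50 RPKM in Cko-ST and 0.387 ± 0.296 in Cko-NS, and 2.96 ± 1.10 in WT-ST and 0.725 ± 0.727 in WT-NS (SD, n = 4 each). The Vegfa means were below the 5 RPKM asked of named list genes, and how its calls fared in the alternative settings is not given. Flt1, a receptor of both factors, fell in knockouts to 53.0 ± 6.47 RPKM in Cko-ST, against 77.5 ± 9.13 in Cko-NS (-0.54 ± 0.16, adjusted p = 0.0285). It missed with median-of-ratios scaling (0.118), in a fit of the 2 groups alone (0.0761), with the replicate number as a block within the knockouts (0.0686), and without Cko-NS 2 (0.0833), Cko-NS 3 (0.0681), Cko-ST 1 (0.0501), Cko-ST 2 (0.0574), Cko-ST 4 (0.0799) or both libraries labelled male (0.118). In controls Flt1 had 53.5 ± 7.32 RPKM in WT-ST and 69.6 ± 8.34 in WT-NS (SD, n = 4 each, -0.38 ± 0.16, adjusted p = 0.134). No gene of these 6 lists was called between genotypes in either hemisphere, in the interaction or in the beta-catenin experiment.

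**Figure D4:**
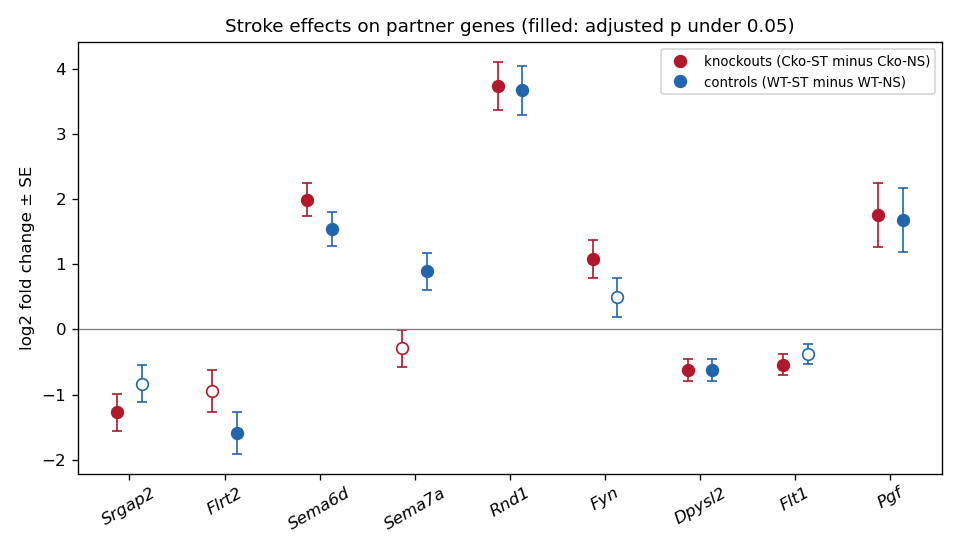
Log2 fold change ± SE (y axis) of 9 partner genes (x axis) with stroke in knockouts (red) and controls (blue); filled points have an adjusted p under 0.05. Rnd1, Sema6d and Pgf are filled and above 0 in both genotypes, and Dpysl2 is filled and below 0 in both.

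In the beta-catenin experiment none of the 8 members was called, and 0% of 11252 genes were called, with 590 at an unadjusted p under 0.05. No member had groups that were apart, where 20.4% of genes had, and 7 of 8 log2 fold changes were below 0, with a median of -0.27 against -0.06 over all genes. Nrp1 had 43.9, 25.8 and 16.0 RPKM in Bcat, against 37.3 and 56.3 in WT. Of the Bcat libraries 2 lay below both WT libraries and 1 between them, with a log2 fold change of -0.77 ± 0.42 (95% interval -1.72 to 0.17, adjusted p = 0.961). The 10 mural markers summed to 35.5, 70.1 and 112 RPKM in these Bcat libraries, against 35.7 in both WT libraries, and the part of mural RNA was not tested. Sema3c had 132, 123 and 147 RPKM in Bcat, against 138 and 163 in WT, overlapping levels with an interval of -0.66 to 0.34 for the log2 fold change. Robo4 had 73.2, 100.4 and 120.2 RPKM in Bcat, against 88.8 and 95.8 in WT, so that the Bcat libraries lay on both sides of WT (0.06 ± 0.27, 95% interval -0.55 to 0.66).

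Plxna2 had 61.0, 101 and 89.0 RPKM in Bcat, against 116 and 97.0 in WT, and Plxnd1 had 14.4, 19.3 and 9.42 RPKM in Bcat, against 19.0 and 18.1 in WT. In both genes 2 of the 3 Bcat libraries lay below both WT libraries, and the log2 fold changes were -0.37 ± 0.28 for Plxna2 and -0.40 ± 0.39 for Plxnd1 (adjusted p = 0.969 for each). Unc5b had 13.5, 8.48 and 8.43 RPKM in Bcat, against 9.36 and 12.8 in WT. Nrp2 had 14.2, 3.52 and 7.07 RPKM in Bcat, against 12.3 and 9.94 in WT, and Sema6a had 30.5, 20.5 and 24.6 RPKM in Bcat, against 19.0 and 33.0 in WT. All 3 overlapped (adjusted p at least 0.969). With 3 against 2 libraries the intervals reach from -1.80 for Nrp2 to 0.80 for Unc5b, and differences within a gene's interval are not excluded. In simulated data for this comparison, 0% of log2 changes of 1 and 8% of changes of 2 were recovered, so larger differences could also be missed. Of the named list genes Rnd1 had 6.04, 3.63 and 0.755 RPKM in Bcat, against 0.479 and 0 in WT, groups that were apart (1.66 ± 0.78, adjusted p = 0.957). Fyn and Dpysl2, also named, were apart as well, both lower in Bcat, and missed the threshold (adjusted p = 0.966 for each). List genes that are not named are not covered here. Srgap1 among them was also apart and lower, at 4.57 to 6.18 RPKM in Bcat and 6.97 to 7.07 in WT. Over all genes 8.66% were apart and higher and 11.7% apart and lower in Bcat.

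**Figure D5:**
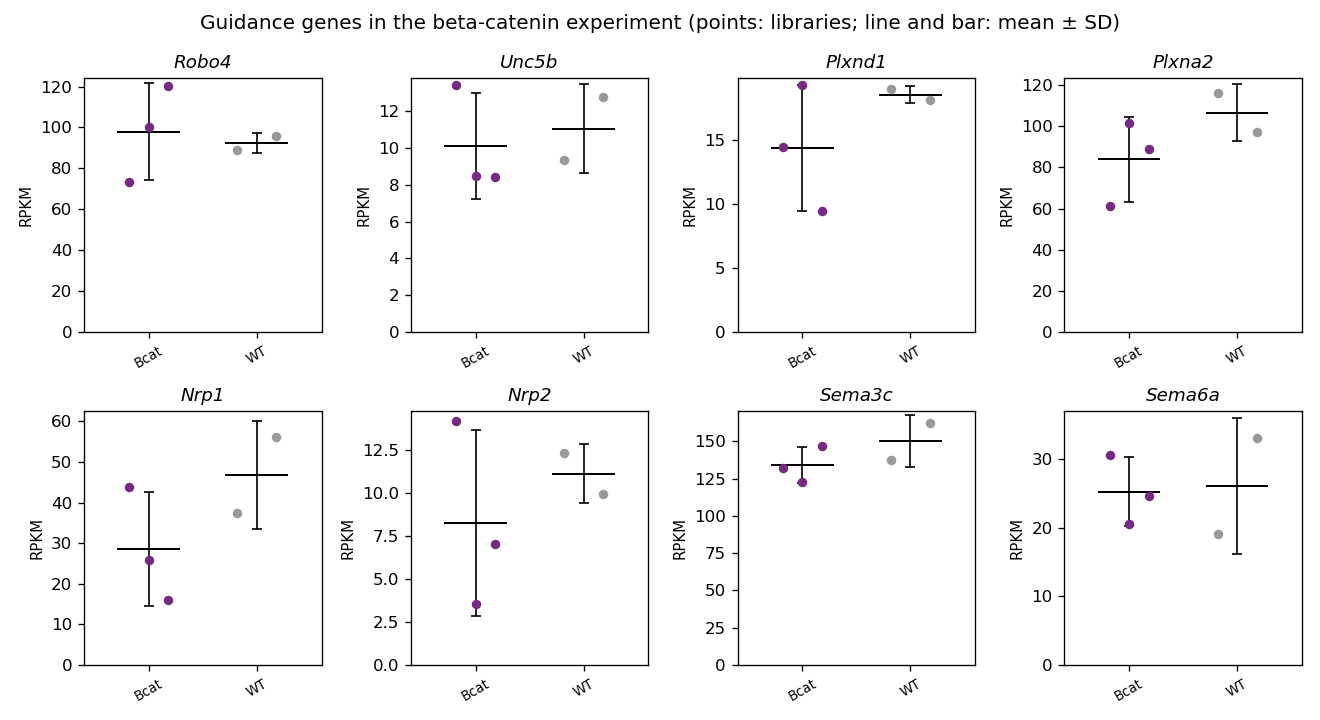
RPKM (y axes, linear) of the 8 guidance genes in the 3 Bcat and 2 WT libraries (x axes); points are libraries, lines and bars the mean ± SD. The groups overlap for every gene, and for Nrp1 2 of the 3 Bcat libraries, at 16.0 and 25.8 RPKM, lie below both WT libraries.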

How the data were processed

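The authors deposited 1 table of RPKM values with a column per library, and edgeR and the mouse build mm10 (GRCm38) are named in the submitters' processing notes. The sources used here do not give the aligner, annotation, gene lengths or further scaling. Per the labels' protocols, the stroke libraries hold 3' end tags (NuGen Ovation 3'-DGE) and the 5 others whole-transcript reads. The table held 24260 rows, of which 54 sharing names were left out. Of its columns 21 were used and 8 that match no described sample were not. Depth was estimated from the commonest RPKM steps of 5563 single-transcript genes with GENCODE lengths and covers the stroke libraries only.

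Values were turned into log2(RPKM + 1), genes averaging under 1 RPKM were dropped, and limma 3.58.1 (R 4.3.3) was run with 1 fit of 4 group means over 16 libraries and 1 fit of 2 group means over 5. Tests were two-sided and p-values were adjusted by Benjamini-Hochberg per comparison, across every gene tested. The fits were tested on simulated data, with 100 changed genes for each size of change. Changes were put only into genes averaging above about 5 RPKM, with normal noise drawn independently for each gene. Recovery for lower genes, such as Plxnd1 in the stroke libraries, was not tested. At log2 changes of 1 and 2, recovery was 53% and 90% for Cko-ST minus WT-ST and 12% and 71% for the interaction. It was 0% and 8% for Bcat minus WT. Xist and Y-linked genes were left out of the tests. The members and lists were chosen with earlier results of these data known. All members were named, and from each list up to 6 called genes whose higher group averaged 5 RPKM or more, or else the 2 with the highest mean. For each member the 3 genes with the highest r were also named. Coordinates are those of GENCODE for GRCm38. No member's exons overlap those of another gene except Mir1903 in Nrp1.

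Same-numbered knockout libraries deviated together across genes, with r of 0.100, 0.134, 0.214 and 0.105 for Cko-ST and Cko-NS. The numbers were therefore used as a block within knockouts in an alternative fit, and the main fit took no pairs. In controls r was 0.0986, 0.130, 0.0721 and 0.0117 and the numbers were not taken as pairs. WT-ST 1, WT-ST 2 and WT-ST 3 each had their highest r with the same-numbered WT-NS library, and WT-ST 4 with WT-NS 1 (0.0336). No block within controls alone was fitted, so its effect on the calls in controls was not tested. Libraries of different genotypes, which cannot share an animal, reached r of 0.168 (Cko-ST 3 and WT-ST 2) and 0.104 (Cko-NS 3 and WT-NS 2). Values of r of this size therefore do not show which libraries share an animal. Replicates of a group correlated across genes with r of 0.940 to 0.980 in the stroke experiment and 0.917 to 0.946 in the other. Alternatives were other pseudocounts (0.1 and 5), filters, scalings, a replicate block, fits of the compared groups alone, and leaving out libraries.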

Additional observations from a re-analysis of the deposited data

Results flagged for a closer look

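A search of 76 groups of 4 libraries, over the 8 members and 11 list genes, found 9 libraries that stood apart from the other 3 of their group by Dixon's test. For normally distributed values chance gives about 1 in 20 groups. RPKM were tested untransformed, so that rate need not hold here. Among the members, Unc5b was 1.59 RPKM in WT-NS 1, against 0.211 to 0.369 in the other WT-NS libraries. Plxna2 was 34.9 RPKM in Cko-ST 3, against 27.2 to 28.5 in the rest of Cko-ST. Nrp1 was 104 RPKM in Cko-ST 4, against 48.2 to 56.2 in the rest of Cko-ST. Among the list genes, Srgap2 was 3.67 RPKM in Cko-ST 3, Plxna1 was 0.764 RPKM in Cko-ST 4 and 0.812 RPKM in Cko-NS 3, and Sema6d was 13.6 RPKM in WT-ST 3. Sema7a was 18.3 RPKM in Cko-NS 4, a library that read as male against its label, and Pgf was 1.03 RPKM in WT-NS 2. Each of the 9 was the highest library of its group. No cause was tested.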

How the results depend on the processing

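Over the members and called list genes, 1232 alternative values kept direction and side of the threshold, 76 lost the call, 5 gained it and 29 changed sign. Every sign change was in a value never called. The count of members called in Cko-NS minus WT-NS was 1 and became 0 with no filter, with median-of-ratios scaling and with only the 2 groups fitted, and it ran from 0 to 2 when single libraries were left out. For WT-ST minus WT-NS it was 3, and 1 to 3 when single libraries were left out (1 without WT-NS 4, WT-ST 3 or WT-ST 4). For Cko-ST minus Cko-NS it was 1, and 1 to 2 when single libraries were left out, and 2 without the libraries whose sex reads against the label. With the replicate number as a block over all libraries of a fit, the counts were 1, 2 and 1 in these comparisons and 0 in the others. This block joined same-numbered libraries across genotypes as well as hemispheres, so it was not a pairing of hemispheres. It took Plxnd1 and Sema7a in controls to adjusted p of 0.0573 and 0.0561. The block within knockouts, which joined hemispheres by number only, left 1 member called. In the 3 further comparisons the count was 0 under every alternative. Where a fit drops libraries or groups, fewer samples enter it. Otherwise the cause was not tested.

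Sign changes by setting, on the log2 scale, were as follows. With median-of-ratios scaling Sema6a was -0.10 in Cko-NS minus WT-NS and 0.057 in Bcat minus WT, and the interactions of Nrp2 and Sema3c were 0.021 and 0.087. With quantile normalization Sema6a was -0.0928 in Cko-NS minus WT-NS, -0.025 in WT-ST minus WT-NS and 0.0077 in Bcat minus WT, and the Nrp2 interaction was 0.086. Without both libraries labelled male the Nrp2 interaction was 0.065, and without those of contrary sex Nrp2 and Sema6a were 0.055 and -0.17 in Cko-NS minus WT-NS. With the replicate block Robo4 was -0.10 in Bcat minus WT. When single libraries were left out, Nrp2 ran from -0.42 to 0.00091 in Cko-ST minus WT-ST, from -0.41 to 0.31 in Cko-NS minus WT-NS and from -0.53 to 0.19 in the interaction. Sema6a ran from -0.17 to 0.13 in Cko-NS minus WT-NS, from -0.12 to 0.11 in WT-ST minus WT-NS and from -0.39 to 0.37 in Bcat minus WT. The Sema3c interaction ran from -0.27 to 0.025, and in Bcat minus WT Robo4 ran from -0.10 to 0.25 and Unc5b from -0.34 to 0.072. Median-of-ratios scaling moved the median of all genes to -0.01 in Cko-NS minus WT-NS, against 0.11, and to -0.01 in Cko-ST minus Cko-NS, against -0.13. Quantile normalization called 740 genes higher and 653 lower in Cko-ST against Cko-NS, and 18 and 14 in Cko-NS against WT-NS. In Cko-NS minus WT-NS, where 22 were called higher and 9 lower, a minimum mean of 5 RPKM called 67 and 17, the replicate block 43 and 17, no filter 9 and 10, and the 2 groups alone 1 and 1. Leaving out single libraries gave between 1 and 0 there, without WT-NS 4, and 41 and 13, without Cko-ST 4. Low genes such as Unc5b and Plxnd1 rest on few reads.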
